A study of Homo sapiens with 8 samples.

Results

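Chromosome 19 is the human chromosome richest in C2H2 zinc finger genes, and the genes described here are those whose symbol is ZNF, a number and at most 1 further letter and whose row in the count tables lies on that chromosome. Of the 23393 genes in the UBA2 KD table, 252 were such genes, and of the 42125 genes in the TFAP2C KD table, 243 were. Together they made 256 genes, of which 239 were listed in both tables, 13 only in the UBA2 KD table and 4 only in the TFAP2C KD table. Symbols ending in P, the letter used for pseudogenes, were among them, with 9 in the UBA2 KD table and 0 in the TFAP2C KD table. ZNF genes on other chromosomes, 272 and 263 in the 2 tables, served as the comparison. RNA was measured in HCT116 cells, a human colorectal cancer line, in 8 libraries of 4 groups with 2 libraries each. Every library came from the line that stably carries an inducible shRNA against SAE2, also called UBA2, a subunit of the enzyme that activates SUMO. In the first experiment the control cells received DMSO for 5 days, and the cells labelled SAE2 kd (UBA2 KD) received doxycycline at 1 ug/mL for 5 days. In the second, cells received control siRNA or TFAP2C siRNA for 48 hours, in the same line, with no doxycycline named in their labels. All groups thus carried the shRNA construct, and any effect of doxycycline itself cannot be told apart from that of the shRNA. Nothing in the labels says that the 2 libraries of a group came from separate cultures, so the p-values measure the spread between these libraries, which may be technical.

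Most genes of this family encode repressors of transcription. A tandem row of C2H2 fingers reads DNA, often within a transposable element, and in the majority a KRAB A box at the start of the protein recruits TRIM28, which in turn brings the histone methyltransferase SETDB1 and HP1 proteins to the bound site. TRIM28 acts as a SUMO E3 ligase for its own bromodomain, and that SUMO mark helps hold SETDB1 and the CHD3 remodeler. The genes arose by repeated local duplication and lie in clusters, which themselves carry TRIM28-dependent H3K9me3 over their last exons.

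The conserved part of these genes limits what short reads can say about them. Of the 256 genes, 254 were matched to a Gencode transcript, and 244 gave an open reading frame from which a protein was read. The proteins held a median of 12 C2H2 fingers and at most 36. A KRAB A box, called at 50% identity or more to a consensus, was found in 202 of the 240 proteins of the UBA2 KD table. Fingers are joined by a linker of almost fixed sequence, so copies share stretches as long as a 51-base read. A read from the 51-base coding stretch below cannot be assigned to 1 gene. It is the one held by the most members among stretches that hold the linker in 1 reading frame. Stretches also found on certain other chromosomes were passed over, so a more widely shared one may exist. The codons of the linker are in capitals:
shared coding stretch: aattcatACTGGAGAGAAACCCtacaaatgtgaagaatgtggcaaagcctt
This stretch occurred in 17 members and in 22 genes in all. Of the 17, 14 are listed in the UBA2 KD table under the same symbol, and all 14 lie in the cluster near the centromere on the short arm described further down. Exact sharing with genes elsewhere was nevertheless limited in most members. A median of 1.51% of a transcript's 51-base windows also occurred in a gene that does not overlap it, 66 transcripts shared none and 24 shared 10% or more. Sharing with genes that overlap the transcript was counted apart. Its median was 0%, but 53 transcripts were at 10% or more and the highest was at 95.3%. Windows were matched exactly, so stretches that differ by a single base count as not shared. ZNF587, a KRAB zinc finger gene with near copies beside it, shared 24.6%, and its counts are uncertain for that reason.

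The targeted genes were examined first. TFAP2C, an AP-2 transcription factor, was at 18.9 and 20.5 CPM (the normalised read count relative to library size, scaled by TMM) with control siRNA and at 3.46 and 4.30 CPM with TFAP2C siRNA, and it fell by 2.34 on the log2 scale (SE 0.13, edgeR adjusted p = 7.67e-06). UBA2 was at 162 and 146 CPM in the control libraries and at 147 and 153 CPM in the libraries labelled UBA2 KD. The groups overlapped, and the log2 difference was -0.04 (95% interval -0.15 to 0.08), so the UBA2 transcript does not show the knockdown that the label names. The UBA2 protein is not measured by these counts, and the libraries are called by their label throughout. Libraries held 18213739 to 24465109 counts. In all 8, 6 of 9 colon epithelial markers were at 1 CPM or more (CDX1, VIL1 and LGALS4 were lower), and 9 of 11 genes of fibroblasts, leukocytes and endothelium were under 1 CPM. The first TFAP2C KD library stood apart from the second more than any other pair did (chi-square per degree of freedom between replicates 9.09, against 2.55 to 2.76 in the other 3 groups), which touches every TFAP2C KD value given here.

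The tested chromosome 19 ZNF genes were, as a group, weakly expressed. Their median log2 CPM was 3.44 and 2.93 in the 2 tables, against 5.02 and 4.62 over all genes tested. Many members were not detected. Among those listed for UBA2 KD, 56 of 252 had 0 counts in all 4 libraries, which allows a level of up to 0.0394 CPM (3 counts over the 4 libraries, counting error only), and 158 passed the filter on low counts. Among those listed for TFAP2C KD, 43 of 243 had 0 counts, which allows up to 0.0327 CPM, and 135 passed. Over all genes listed, 5890 of 23393 and 17344 of 42125 had 0 counts, and 13381 and 14991 passed. Of ZNF genes on other chromosomes, 30 of 272 and 25 of 263 had 0 counts, and 221 and 215 passed. The share of members at 0 counts was thus not above that of all genes listed, but above that of ZNF genes elsewhere. Low expression was shared between the experiments. Of the 239 genes listed in both tables, 82 stayed under 0.5 CPM in every library of the UBA2 KD table, and all 82 also stayed under 0.5 CPM in every library of the other. A further 24 did so in the TFAP2C KD table alone.

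Several members with well-known roles were among the undetected. ZNF93, which represses L1 elements, had 0 counts in all 8 libraries, as did ZNF420, a KRAB protein reported to restrain p53. ZNF208, from the cluster near the centromere, had a count of 1 in the first TFAP2C KD library and 0 in the other 7. ZNF43, its neighbour, had a count of 1 in the second library labelled UBA2 KD, a count of 1 in the first TFAP2C KD library and 0 elsewhere. ZNF331, a gene often methylated in gastrointestinal tumours, had a count of 1 in the first control siRNA library and 0 in the other 7. ZNF382, also described as silenced by methylation in cancers, had counts of 3 and 2 in the TFAP2C KD libraries and 0 in the other 6.

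At the other end, few genes carried much of the family's RNA. ZNF146, which consists almost wholly of zinc fingers and has no KRAB box, held the highest level per length in both tables, with a control RPKM (CPM per kilobase of the length given in the table) of 78.2 and 29.8. It alone made up 11.0% of the summed CPM of the members in the controls of the UBA2 KD table and 6.77% in the controls of the TFAP2C KD table. The next 4 by control RPKM in the UBA2 KD table were ZNF121 at 38.4, ZNF580 at 19.4, ZNF428 at 17.4 and ZNF579 at 15.8. In the TFAP2C KD table they were ZNF581 at 27.1, ZNF428 at 18.7, ZNF121 at 18.3 and ZNF580 at 15.7. The lowest of the tested genes were ZNF772, ZNF546, ZNF599, ZNF814 and ZNF493 in the UBA2 KD table, with control RPKM of 0.112 to 0.367, and ZNF283, ZNF546, ZNF599, ZNF320 and ZNF585A in the TFAP2C KD table, with 0.0833 to 0.143. The 10 most abundant members held 32.8% and 35.2% of the summed CPM. Members without a KRAB A box were the more highly expressed in both tables, with a median control RPKM of 6.73 over 30 tested genes against 2.52 over 124 with the box in the UBA2 KD table, and 4.78 over 30 against 1.01 over 104 in the TFAP2C KD table. These are descriptions of levels and were not tested.

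The first comparison asks whether cells labelled as depleted of the SUMO-activating enzyme express these genes differently. They largely did not pass the test. Of 158 members tested, 0 were called higher and 2 were called lower, ZNF160 and ZNF738, which is 1.27%. Over all 13381 genes tested, 9.98% were called (5.52% higher and 4.47% lower) by edgeR's quasi-likelihood test with Benjamini-Hochberg adjustment at an adjusted p of 0.05. Of all genes, 738 were called higher and 598 lower, which turned to 588 and 805 with scaling by library size alone, a scaling that left the members' count as it was. At an unadjusted p under 0.05 there were 11 members, 5 higher and 6 lower, or 6.96%, against 22.7% of all genes. DESeq2's Wald test called 0 members, against 5.03% of all genes, and had 2 members at an unadjusted p under 0.05. The share of all genes at that unadjusted p by DESeq2 is not given here. Members whose knockdown libraries both lay beyond both controls numbered 68, 34 in each direction, or 43%, against 51.3% of all genes. Each share that has a background beside it lies under that background. The members also have fewer counts than the typical gene, with a median log2 CPM of 3.44 over those tested against 5.02 over all genes tested. Among the 79 members of the higher expressed part, from a log2 CPM of 3.44 up, 1.27% were called, against 10.7% of all genes in the same range of levels and 11.4% of the 158 ZNF genes there on other chromosomes. Among the 79 members under that level the share was 1.27% as well. There it was 6.01% for all genes and 3.28% for the 61 ZNF genes on other chromosomes. Levels within each range were not matched.

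ZNF160, a KRAB protein with 20 fingers reported to act with TRIM28 at TLR4 in intestinal epithelial cells, was at 28.3 and 32.1 CPM in the controls and at 24.9 and 24.7 CPM in the libraries labelled UBA2 KD. Both knockdown libraries lay under both controls. In bulk RNA, fewer cells using a gene and less of its RNA per cell cannot be told apart. It fell by 0.29 on the log2 scale (SE 0.08, adjusted p = 0.0251). ZNF738, a short member with 5 fingers, was at 11.0 and 11.5 CPM in the controls and at 8.27 and 8.81 CPM in the libraries labelled UBA2 KD, again without overlap, and it fell by 0.40 on the log2 scale (SE 0.12, adjusted p = 0.0314). Neither call was firm. Both were lost with DESeq2's Wald test (adjusted p = 0.185 and 0.284) and with all 8 libraries in 1 fit (0.167 and 0.124). They were also lost without control library 2 (0.367 and 0.160), without UBA2 KD library 1 (0.0539 and 0.165) and without UBA2 KD library 2 (0.0643 and 0.0534), and kept without control library 1. The log2 difference stayed below 0 in each of these fits.

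**Figure D1:**
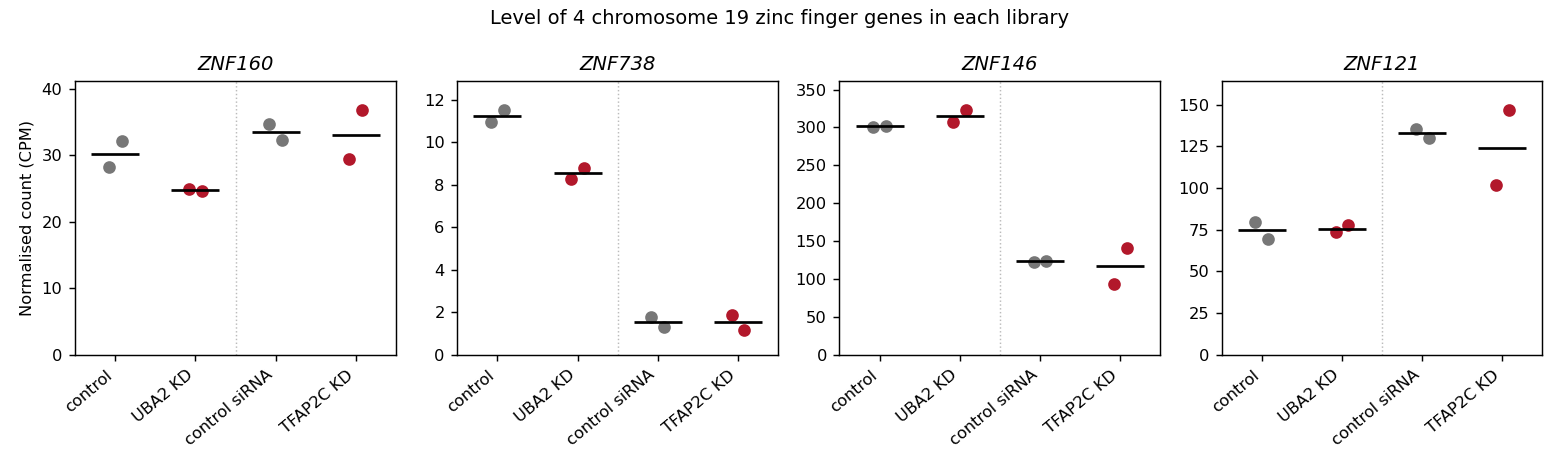
Normalised count (CPM, linear axis from 0) of ZNF160, ZNF738, ZNF146 and ZNF121 in each library, with 2 points per group and a bar at the group mean, and a dotted line between the 2 count tables. ZNF160 and ZNF738 lay lower in both libraries labelled UBA2 KD than in both controls, whereas the 2 TFAP2C KD libraries of ZNF146 and ZNF121 lay on opposite sides of their controls.

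The RefSeq promoter of ZNF160 is printed because it is the leading call of the family and because it was searched for the AP-2 motif. The 250 bases before its start lie at chr19:53103423-53103672 (GRCh38.p14, minus strand) and are given in the direction of transcription, with matches to the AP-2 motif GCCNNNGGC or the GC box GGGCGG on either strand in capitals:
ZNF160 promoter: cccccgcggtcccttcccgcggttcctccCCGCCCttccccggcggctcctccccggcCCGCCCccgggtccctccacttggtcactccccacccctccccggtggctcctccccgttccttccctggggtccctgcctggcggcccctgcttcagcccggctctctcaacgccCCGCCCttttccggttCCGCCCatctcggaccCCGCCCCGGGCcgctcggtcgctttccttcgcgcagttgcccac
It holds 5 GC boxes and 1 AP-2 match, which overlaps the last GC box, and 26 CG pairs. Over 215 member promoters with a RefSeq entry, 20.9% held an AP-2 match, against 19.7% of all 27305 promoters of the same length. GC boxes were in 65.1% of member promoters against 42.3% of all, CCAAT was in 51.2% against 33.0%, and TATAAA was in 1.86% against 11.1%. ZNF genes on other chromosomes gave 24.8%, 57.5%, 42.1% and 4.21% in the same order. A match to these letters is not a bound site. The promoters of members at 0 counts in the UBA2 KD table held a median of 15.5 CG pairs over 44 promoters, against 16.0 over the 140 of tested genes. In the TFAP2C KD table these medians lay further apart, at 13.0 over 37 promoters and 17.0 over 121. Members counted but not tested had a median of 12.5 over 28 promoters in the UBA2 KD table and 14.5 over 56 in the TFAP2C KD table. These differences were not tested.

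Just outside the threshold stood ZNF749 and ZNF792, which were singled out after their values were seen. ZNF749 was at 9.83 and 11.7 CPM in the controls and at 13.7 and 13.5 CPM in the libraries labelled UBA2 KD (log2 difference 0.33, adjusted p = 0.0675). With no filter on low counts it passed (adjusted p = 0.0426), and it passed without control library 2 (0.0238). Without control library 1 the log2 difference was 0.21 (adjusted p = 0.428), and DESeq2's Wald test gave an adjusted p of 0.375. ZNF792 was at 5.34 and 5.85 CPM in the controls and at 3.89 and 4.35 CPM in the libraries labelled UBA2 KD (log2 difference -0.44, adjusted p = 0.0877). The groups of neither gene overlapped.

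Members with known roles that were tested gave small differences. ZNF91, which represses SVA and L1 elements, was at 13.6 and 10.6 CPM in the controls and at 12.6 and 12.2 CPM in the libraries labelled UBA2 KD, with the knockdown values between the controls (log2 difference 0.04, 95% interval -0.20 to 0.29). ZNF274, which brings TRIM28 and SETDB1 to the 3' ends of zinc finger genes themselves, was at 11.3 and 10.5 CPM and then at 13.0 and 11.7 CPM (log2 difference 0.18, interval -0.06 to 0.41). ZNF304, a KRAB repressor described in colorectal cancer cells, was at 14.2 and 14.8 CPM and then at 15.9 and 14.8 CPM (0.08, interval -0.13 to 0.29). None of the 3 passed the test. ZNF350, a partner of BRCA1, gave a log2 difference of -0.18 (interval -0.66 to 0.29), and ZNF224, a repressor of aldolase A, gave -0.09 (interval -0.33 to 0.15). ZNF146, the most abundant member, was at 300.2 and 302.4 CPM in the controls and at 307 and 323 CPM in the libraries labelled UBA2 KD (0.06, interval -0.03 to 0.16).

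Across the family the changes were about as narrow as those of other genes and centred close to them. The median log2 difference over the 158 tested members was 0.02 (quartiles -0.11 and 0.10), against 0.02 over 221 ZNF genes on other chromosomes and -0.0004 over all genes. With scaling by library size alone the first 2 of these medians were -0.004 and -0.003, and that of all genes was -0.03. With TMM scaling the quartiles were -0.09 and 0.11 over ZNF genes on other chromosomes and -0.10 and 0.09 over all genes. The 95% interval of the log2 difference lay within 1 in either direction, a change of 2-fold, for 156 of the 158, and within 1.5-fold for 130. Over all 13381 genes tested these counts were 12459 and 10817. The summed CPM of all 252 members was 2747 and 2751 in the controls and 2750 and 2806 in the libraries labelled UBA2 KD. Summed over the family, the second of these libraries was the highest and the other 3 were close together.

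On other chromosomes 12 ZNF genes were higher and 8 lower of 221 tested, or 9.05%, near the background of 9.98%, and the difference between this share and that of the members was not tested. Scaling by library size alone turned the split to 7 higher and 13 lower, while DESeq2's Wald test called 1 higher and 3 lower and the fit of all 8 libraries 2 and 2. Of all genes, 5.03% were called by DESeq2's Wald test and 5.28% in the fit of all 8 libraries. ZNF674 rose by 0.48 on the log2 scale (adjusted p = 0.0172), ZNF691 by 0.34 (0.0461) and ZNF697 by 0.31 (0.0344). ZNF608 fell by 0.65 on the log2 scale, from 17.1 and 17.0 CPM to 10.3 and 11.3 CPM, and ZNF827 fell by 0.37 (adjusted p = 0.0015), while ZNF169 fell by 0.40 (0.0377). ZNF608 and ZNF827 kept their calls whichever library was left out. ZNF691 and ZNF697 lost theirs without any 1 of the 4 libraries (adjusted p of 0.0532 to 0.222 and of 0.0623 to 0.189). ZNF674 lost its call without control library 2 or UBA2 KD library 1 (0.0686 and 0.0983), and ZNF169 without control library 1 or UBA2 KD library 1 (0.157 and 0.262).

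The partners through which KRAB zinc finger proteins act were read from 2 lists. In the list of 20 genes of TRIM28 silencing, which includes SETDB1, the HP1 genes and the HUSH complex, 19 were tested in each experiment. In the UBA2 KD comparison 0 were higher and 1 was lower, beside a background of 9.98%, and 4 were at an unadjusted p under 0.05, beside 22.7% of all genes. That gene was CBX1, which encodes HP1 beta, at 198 and 209 CPM in the controls and 178 and 184 CPM in the libraries labelled UBA2 KD, and it fell by 0.17 on the log2 scale (adjusted p = 0.0300). Its call was lost without control library 2 (0.329) and without UBA2 KD library 1 (0.145), and with DESeq2's Wald test (0.0701) and all 8 libraries in 1 fit (0.183). TRIM28 was at 1103 and 1130 CPM and then at 1117 and 1041 CPM (log2 difference -0.05, interval -0.13 to 0.04). In the TFAP2C comparison 0 of 19 were called by edgeR, beside a background of 0.74%, with 1 at an unadjusted p under 0.05, beside 12.6% of all genes, and TRIM28 was at 806 and 839 CPM with control siRNA and at 918 and 814 CPM with TFAP2C siRNA. In the list of 18 genes of the SUMO pathway, all 18 were tested and 0 were called in either experiment, with 2 and 0 at an unadjusted p under 0.05.

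The second comparison asks whether loss of TFAP2C changes these genes. Of 135 members tested, edgeR called 0, against 0.74% of 14991 genes (0.26% higher and 0.48% lower). DESeq2's Wald test also called 0, against 0.76% of all genes. At an unadjusted p under 0.05 there were 8 members by edgeR, 1 higher and 7 lower, or 5.93%, against 12.6% of all genes. By DESeq2 there was 1, and the share of all genes is not given for it here. Groups did not overlap for 46 members, 17 higher and 29 lower, or 34.1%, against 44.7% of all genes. The count of 0 lies close to that background. The median log2 difference was -0.02 (quartiles -0.15 and 0.06), against -0.03 over 215 ZNF genes on other chromosomes and -0.004 over all genes. The 95% interval lay within a 2-fold change in either direction for 125 of the 135 and within 1.5-fold for 99.

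The members with the lowest p were chosen after their values were seen. ZNF112, a KRAB gene with 13 fingers, was at 3.20 and 2.73 CPM with control siRNA and at 1.33 and 2.19 CPM with TFAP2C siRNA (log2 difference -0.77, adjusted p = 0.210). With no filter on low counts it passed (adjusted p = 0.0163). ZNF227 was at 16.1 and 16.0 CPM and then at 12.5 and 13.7 CPM (-0.30, adjusted p = 0.262), and ZNF224 was at 22.4 and 19.1 CPM and then at 13.6 and 18.7 CPM (-0.37, adjusted p = 0.299). ZNF574, a member with no KRAB box, was at 41.9 and 42.7 CPM and then at 50.3 and 46.8 CPM (0.20, adjusted p = 0.336). In none of these did the groups overlap.

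The result rests on which knockdown library is read. Between the 2 TFAP2C KD libraries, 17 of 135 members differed by more than 0.5 on a log2 scale of CPM plus 0.5, against 2 between the control siRNA libraries. The spread was not particular to the members. Of ZNF genes on other chromosomes, 24 of 215 differed by as much between the knockdown libraries and 1 between the controls. ZNF146 was at 123 and 124 CPM with control siRNA and at 92.9 and 141 CPM with TFAP2C siRNA, and ZNF121 was at 136 and 130 CPM and then at 102 and 147 CPM. Both genes thus lay below their controls in the first knockdown library and above them in the second, which held for 21 members, while 11 did the opposite. How often either order occurred over all genes is not given here, so these counts are not read as particular to the members. Without the second TFAP2C KD library, 13 members were called lower and 2 higher, ZNF112, ZNF224, ZNF227 and ZNF146 among the lower ones and ZNF574 among the higher, but 18.2% of all genes were called as well. Without the first, 1 member was called lower, which was ZNF444. Both of these fits rest on 1 knockdown library, and in both more of all genes were called than with every library. The share of these calls that comes from either library was not tested. ZNF274 was at 11.7 and 11.3 CPM and then at 11.8 and 12.5 CPM (log2 difference 0.08, interval -0.16 to 0.32), and ZNF304 was at 5.25 and 5.37 CPM and then at 5.00 and 4.56 CPM (-0.15, interval -0.46 to 0.16). Neither passed the test.

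On other chromosomes 0 of 215 ZNF genes were higher and 1 was lower. ZNF704 was at 48.9 and 48.0 CPM with control siRNA and at 30.1 and 36.1 CPM with TFAP2C siRNA and fell by 0.55 on the log2 scale (adjusted p = 0.0212). It was lower in the libraries labelled UBA2 KD as well (by 0.27, adjusted p = 0.0070), from 64.5 and 57.8 CPM to 50.2 and 50.8 CPM. The TFAP2C call was lost without control siRNA library 1 (0.0593) and the other without control library 1 (0.188) and with all 8 libraries in 1 fit (0.0926).

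The changes in the 2 experiments were compared directly in 1 model over all 8 libraries. Of 156 members in the test, 0 differed between the experiments at an adjusted p under 0.05 by edgeR, against 2.37% of 13179 genes, and 10 did at an unadjusted p under 0.05. The share of all genes at that unadjusted p is not given here. Of 218 ZNF genes on other chromosomes, 0 were called. Members near 0 counts in 1 experiment could hardly be called. ZNF222 and ZNF350 were at 0 CPM with control siRNA, and their differences had an SE of 497 and 330 on the log2 scale. Without the second TFAP2C KD library 9 members were called, as were 1554 genes in all, and without the first 1 member and 533 genes were, against 313 genes with every library. For ZNF160 the change under the UBA2 KD label minus that in TFAP2C KD was -0.25 (95% interval -0.57 to 0.06), and for ZNF738 it was -0.37 (interval -0.99 to 0.26). ZNF160 itself was at 34.7 and 32.3 CPM with control siRNA and at 29.5 and 36.8 CPM with TFAP2C siRNA, so the groups overlapped there, and ZNF738 was at 1.76 and 1.29 CPM and then at 1.88 and 1.16 CPM. Of 133 members tested in both experiments, 33 were above 0 in both, 36 below 0 in both, 40 above 0 only in the UBA2 KD comparison and 24 only in the TFAP2C one. Across those genes, which are not independent replicates, Pearson's r of the log2 differences was -0.08.

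The members lie in clusters, formed here by splitting the hg19 positions of the UBA2 KD table wherever neighbouring starts were more than 1 Mb apart. That gave 9 clusters of at least 5 members, which held 241 of the 252, and they are numbered in their order from the end of the short arm. Detection differed between them. In cluster 4, next to the centromere on the short arm (chr19:19779663-24312654), 15 of 36 members had 0 counts in all libraries of the UBA2 KD table and 15 were tested. ZNF91, ZNF43, ZNF208, ZNF93 and ZNF738 lie in it. In cluster 9, at the end of the long arm (chr19:55987699-58992597), 12 of 60 had 0 counts and 43 were tested. Cluster 6 (chr19:36673187-38307940) had 10 of 26 at 0 counts, and cluster 5 (chr19:35168567-35454953) had 0 of 5.

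Changes within clusters were small as well. For the UBA2 KD label the median log2 difference of the tested members ran from -0.15 in cluster 4, where 10 of 15 lay below 0, to 0.15 in cluster 5, which has 5 tested members. Cluster 9 had a median of 0.05, with 31 of 43 above 0. The lower calls were ZNF738 in cluster 4 and ZNF160 in cluster 8 (chr19:52074531-54083523). In TFAP2C KD the medians ran from -0.16 in cluster 6, with 2 of 9 above 0, to 0.10 in cluster 1, which has 4 tested members. Neighbours share sequence and are not independent, and these medians were not tested. By protein, the 124 tested members with a KRAB A box had a median log2 difference of 0.002 under the UBA2 KD label, and the 30 without it had 0.06. In TFAP2C KD the medians were -0.04 over 104 and 0.02 over 30.

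**Figure D2:**
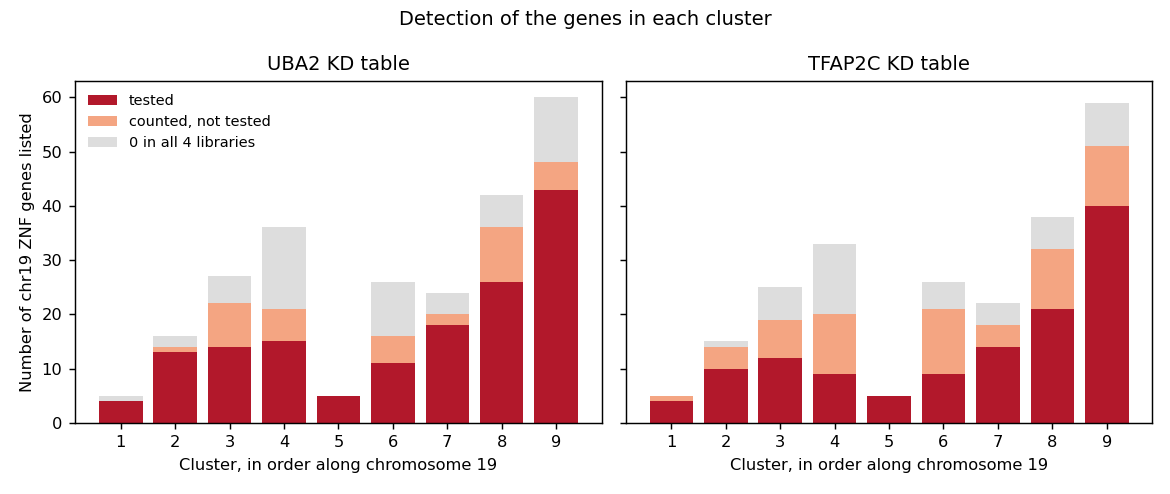
Number of chromosome 19 ZNF genes in each of the 9 position clusters, in order along the chromosome, that were tested, counted without passing the filter, or at 0 counts in all 4 libraries, in the UBA2 KD table (left) and the TFAP2C KD table (right). Cluster 4 had 15 of 36 and 13 of 33 genes at 0 counts, and cluster 9, the largest, had 12 of 60 and 8 of 59.

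Control levels of the members were also set side by side between the 2 count tables, as a description. Of 151 members listed in both tables and at 1 CPM or more in the controls of the UBA2 KD table, 36, or 23.8%, were more than 4-fold lower with control siRNA in the TFAP2C KD table. The same held for 8 of 211 ZNF genes on other chromosomes, or 3.79%, for 24 of 717 other genes of chromosome 19, or 3.35%, and for 436 of 11942 genes in all, or 3.65%. In the other direction, 0 of 126 members at 1 CPM or more with control siRNA were more than 4-fold lower in the controls of the UBA2 KD table, against 4.67% of all genes. The same held for 3 of 210 ZNF genes on other chromosomes, or 1.43%, and for 62 of 750 other genes of chromosome 19, or 8.27%. Both sets of controls came from the same line according to the labels. The experiment, the DMSO or siRNA treatment and the table, which lists hg19 positions in the first case and GRCh38 positions in the second, differed together and cannot be told apart, so these differences carry no test.

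The named cases were large. ZNF91 was at 13.6 and 10.6 CPM in the first set of controls and at 0 and 0.048 CPM in the second. ZNF266 was at 13.1 and 14.7 CPM in the first and had 0 counts in both control siRNA libraries, and ZNF350 was at 2.24 and 2.64 CPM in the first and had 0 counts in the second. ZNF738 was at a mean of 11.2 CPM in the first and 1.53 CPM in the second, and ZNF320 was at 28.9 and 27.1 CPM in the first and at 1.27 and 1.05 CPM in the second. The affected members were unevenly spread: 9 of 14 in cluster 4 and 10 of 25 in cluster 8, but 3 of 42 in cluster 9 and 0 of 5 in cluster 5. KRAB genes made up 34 of the 36 and 86 of the other 115. The median share of 51-base windows that also occur in another, non-overlapping gene was 3.72% in the 36 and 0.767% in the other 115, and the transcript of ZNF266 shared only 0.0286%. Rows of other genes overlapped 52.8% of the 36 in the TFAP2C KD table and 64.3% of the other 115. The part of shared sequence, of overlapping rows and of the annotation in these differences was not tested.

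**Figure D3:**
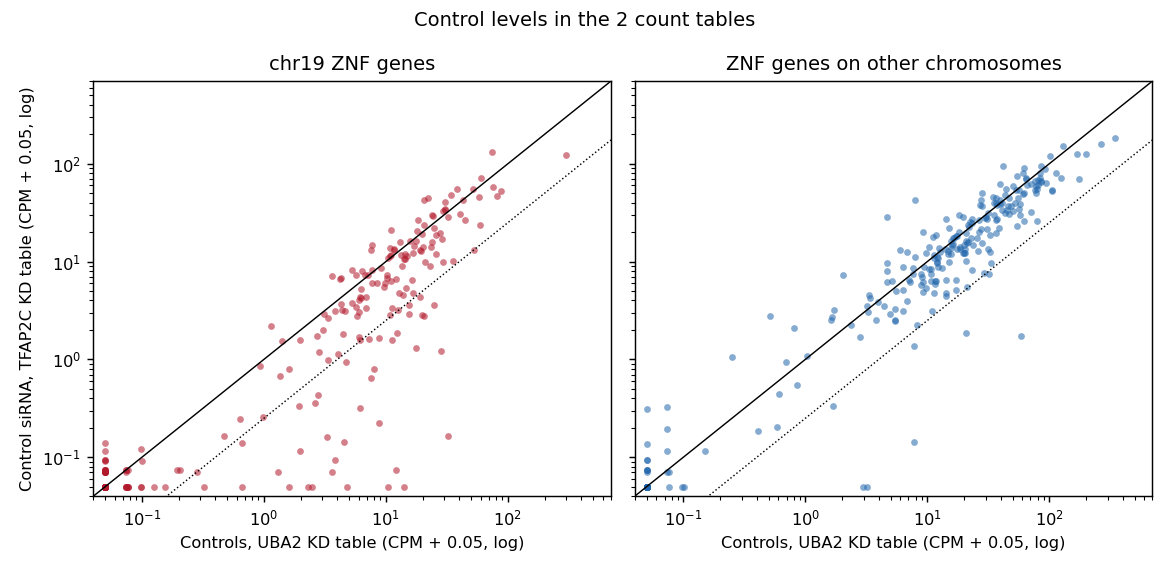
Mean control level of each gene in the TFAP2C KD table against that in the UBA2 KD table (CPM plus 0.05, log axes), for chromosome 19 ZNF genes (left) and ZNF genes on other chromosomes (right), with each point a gene, a solid line at equal levels and a dotted line at a level 4 times lower. Genes more than 4-fold lower were counted on CPM without the added 0.05, among genes at 1 CPM or more in the controls of the UBA2 KD table. They were 36 of 151 on the left and 8 of 211 on the right. With 0.05 added, ZNF44 (6.14 and 1.53 CPM) lies just above the dotted line.

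The promoter of ZNF91 is given as that of a member with a known target whose control levels in the 2 tables differed widely. The 250 bases before its RefSeq start lie at chr19:23395472-23395721 (GRCh38.p14, minus strand), in the direction of transcription, with a CCAAT and a GC box in capitals:
ZNF91 promoter: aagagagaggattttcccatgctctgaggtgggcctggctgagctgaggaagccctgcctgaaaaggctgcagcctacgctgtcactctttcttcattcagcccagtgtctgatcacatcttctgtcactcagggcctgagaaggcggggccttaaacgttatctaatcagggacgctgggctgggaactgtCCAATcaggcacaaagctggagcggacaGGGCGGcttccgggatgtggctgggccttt
It holds 7 CG pairs, against 26 in that of ZNF160 and a median of 16.0 over the 215 member promoters, and no AP-2 match.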

How the data were processed

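Counts were deposited by the authors as raw read counts per gene, 1 table per experiment, with a gene length in kilobases. Per the methods and the submitters' processing notes, the authors aligned 51-base single-end reads from mRNA libraries with TopHat2 to hg19 and counted RefSeq genes with HTSeq 0.9.1. The strand setting is not given in the sources used here. The TFAP2C KD table lists GRCh38 positions and Ensembl gene types, which differs from those methods. Reads that fit several genes may have been dropped or split, which bears on near-identical paralogs.

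From these counts, each table was fitted alone in edgeR 4.0.16 (R 4.3.3) with TMM scaling, filterByExpr, the quasi-likelihood test and Benjamini-Hochberg adjustment over all genes tested. CPM was computed on TMM-scaled library sizes, and RPKM as CPM per kilobase. Libraries held 18213739 to 24465109 counts, and intervals cover 95%. DESeq2 1.42.0, other scalings, filters, a replicate block and omission of each library were alternatives. The code was tested on simulated data. Members, gene lists and tests were chosen with earlier results of these data known. Named were the targets, called partner genes, called members and the 3 largest changes in each direction among other ZNF genes (log2 CPM of 0 or more, groups apart), the 5 highest and lowest RPKM, and 12 members with known roles. Proteins were to come from RefSeq, but translated Gencode coding sequences on GRCh37 were used, and fingers and the KRAB A box were found by pattern. Motifs were searched in RefSeq promoters.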

Additional observations from a re-analysis of the deposited data

How the results depend on the processing

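In the UBA2 KD comparison the count of members called lower was 0 instead of 2 with DESeq2's Wald test and with all 8 libraries in 1 fit, and the count called higher was 1 instead of 0 with no filter on low counts. Of all genes, 5.03%, 5.28% and 8.59% were called in these fits, in the same order. Leaving out each library in turn gave 0 to 2 members higher and 0 to 3 lower. Scaling by library size alone moved the median log2 difference of members to -0.00398 and that of ZNF genes on other chromosomes to -0.00331. Leaving out each library gave medians from -0.00799 to 0.0178 and from 0.0106 to 0.0355. In the TFAP2C KD comparison, no filter on low counts gave 1 member lower instead of 0, and leaving out each library gave 0 to 2 higher, 0 to 13 lower, and medians from -0.0804 to -0.00526 for members and from -0.0677 to 0.00559 for other ZNF genes. In the test of the difference, leaving out each library gave 0 to 9 members called. With no filter on low counts, 1.61% of all genes were called in the TFAP2C KD comparison. With 2 libraries a group, the lone library left in a group is taken to vary like the others. Counts of members called in such fits have no share of all genes beside them here and are not read as results about the members.
Of the named genes, none that was called reversed under any alternative. For some that were not called, leaving out each library gave a range of log2 differences across 0. In the UBA2 KD comparison these were UBA2 (-0.106 to 0.0375, above 0 without control library 1), TRIM28 (-0.0999 to 0.00150, above 0 without UBA2 KD library 2) and ZNF91 (-0.133 to 0.231, below 0 without control library 2). In the TFAP2C KD comparison these were TRIM28 (-0.0140 to 0.162, below 0 without TFAP2C KD library 1), ZNF160 (-0.183 to 0.134, above 0 without control siRNA library 1 or TFAP2C KD library 1), ZNF738 (-0.407 to 0.282, above 0 without control siRNA library 1 or TFAP2C KD library 2) and ZNF146 (-0.406 to 0.197, above 0 without TFAP2C KD library 1). The causes were not tested.
Replicate numbers were not taken to pair the libraries. Same-numbered libraries' deviations correlated at 0.02 in the UBA2 KD table and -0.18 in the TFAP2C KD table. With 2 libraries a group, such values cannot show whether the libraries were prepared in pairs. With the replicate number as a block, 0 members were higher and 2 lower in the first (median 0.02) and 0 higher and 0 lower in the second, and genes called went from 1336 to 1308 and from 111 to 172. With the TFAP2C KD numbers crossed in the block, an alternative chosen after seeing the data, 1 member was lower, 0 higher and 467 genes were called. DESeq2's Wald test called 673 genes in the UBA2 KD comparison, the fit of all 8 libraries 696 there and 271 in the TFAP2C KD comparison, and omission of TFAP2C KD library 2 gave 2825 in the latter comparison and of library 1 537, while no filter on low counts gave 398 there and omission of control siRNA library 1 gave 49 and of library 2 gave 74. Omission of control library 2 gave 833 in the UBA2 KD comparison. With 2 libraries a group and a median of about 3 in log2 CPM for the members, the typical 95% interval of a member spanned 0.24 and 0.30 on the log2 scale to either side of its estimate.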
